A study of Homo sapiens with 6 samples.

Results

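Small nucleolar RNAs (snoRNAs) and small Cajal body RNAs were followed in PA-1 cells, a line from a human ovarian teratocarcinoma. They were chosen by symbol and level, as the rows of the deposited expression table whose symbol starts with SNORD, SNORA or SCARNA and whose mean over the 6 libraries reached 1 RPKM (reads scaled to gene length and to library total). This rule took 171 of 353 such rows, and of 11881 genes of any kind at that level among 20494 rows. The set held 119 box C/D RNAs (SNORD), 44 box H/ACA RNAs (SNORA) and 8 Cajal body RNAs (SCARNA). Of the 182 rows left out, 98 were listed at 0 in every library. The measured level that chose them is their mean RPKM and not a difference between libraries. Just inside the limit lay SNORA71C at 1.09, SNORD116-14 at 1.14 and SNORD18B at 1.15 RPKM, and just outside lay SNORA14B at 0.985, SNORA50 at 0.982 and SNORA24 at 0.977 RPKM.

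Box C/D snoRNAs hold conserved C and D boxes and guide the methylation of ribose at chosen positions of ribosomal RNA, with the methylase fibrillarin. Box H/ACA snoRNAs fold into hairpins and guide the conversion of uridine to pseudouridine, with dyskerin. Their relatives in Cajal bodies act on spliceosomal RNAs. Most of these RNAs in human cells lie in introns of host genes and are trimmed from the excised intron, so a host locus yields both a spliced transcript and small RNAs. Many hosts encode ribosomal or nucleolar proteins, and others, such as GAS5 and the SNHG genes, give spliced transcripts with little coding capacity.

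Each group held 1 library. Cells were transfected for 48 h with 8 µg of pcDNA3.1 plasmid, empty (Vector) or carrying RIPK1, RIPK2, RIPK3 or RIPK4, which are receptor-interacting protein kinases, or were given 200 ng of the ligand Wnt3a for 16 h. Whether plasmid was present in the Wnt3a cells is not in the labels, and their time differs from that of Vector. Total RNA was isolated on RNeasy columns and made into libraries by the usual Illumina procedure, and a step that selects small RNA is not stated. How far these steps kept RNAs as short as the members was not tested.

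The read totals recovered from the values were 17.2 to 19.5 M over the 6 libraries. The transfected kinase stood highest in its own library: RIPK1 at 16.6 RPKM against 12.8 in Vector, RIPK2 at 27.4 against 11.8, and RIPK3 at 61.4 and RIPK4 at 17.9 with both listed at 0 in Vector. All 7 markers of the embryonal PA-1 line were kept, with LIN28A at 213 to 392 RPKM, and their sum was 621 RPKM in Vector and 387 to 679 in the others. SOX2 lay at 149 RPKM in Vector, 48.1 in Wnt3a, 133 in RIPK1, 63.2 in RIPK2, 68.5 in RIPK3 and 78.1 in RIPK4, and was at least 2-fold lower on the log2(RPKM + 1) scale in Wnt3a, RIPK2 and RIPK3. PRDM14 was so in Wnt3a, at 25.2 RPKM against 56.8 in Vector, and no other marker of the line was 2-fold lower in any library. Of 9 markers of other cells 5 were kept, the fibroblast genes COL1A1, COL1A2 and THY1 and the endothelial genes PECAM1 and CDH5, while PTPRC, CD34, KRT5 and KRT14 were at most 0.0602 RPKM. COL1A1 was at least 2-fold higher in RIPK2 at 82.6 RPKM and in RIPK3 at 83.0, against 32.6 in Vector. The other 4 were within 2-fold of Vector on the log2(RPKM + 1) scale. In RPKM itself CDH5 passed 2-fold, at 10.95 in RIPK2 and 11.5 in RIPK3 against 5.40 in Vector, ratios of 2.03 and 2.12. The 9 markers of other cells summed to 176 RPKM in Vector, 233 in Wnt3a, 152 in RIPK1, 279 in RIPK2, 295 in RIPK3 and 224 in RIPK4, and the part of either marker list in the results was not tested. Groups were not replicated, so no difference has a replicate check, no test was made, and each ratio compares libraries and not conditions. In bulk RNA, fewer cells of a type and less RNA per cell cannot be told apart. Intervals of a ratio between a library and Vector are exact binomial (Clopper-Pearson) 95% intervals of the ratio of RPM (reads scaled to library total, without gene length). Those of small RNAs relative to their host are 95% intervals of the odds ratio of member and host reads in the library and in Vector. Both kinds cover only counting error, as reads that carry no molecular tag need not come from separate molecules. All 5 comparisons share the Vector library, and what is particular to that library cannot be told apart from an effect of the conditions.

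The sequences of 154 members were found by name in GENCODE 29 (GRCh38). The boxes that define each class were searched on the RNA strand: the core TGATGA of the C box in the first 20 bases, the D box CTGA in the last 16 bases, and the trinucleotide ACA ending 2 to 4 bases before the end. Of 104 SNORD members 68 held the C box core (65.4%) and 101 the D box (97.1%), against 0 and 3 of 44 SNORA members (0.0% and 6.82%). ACA stood at the end of 34 SNORA members (77.3%) and of 2 SNORD members (1.92%). The H box pattern ANANNA, starting between 35% and 65% of the RNA's length, was held by 42 SNORA members (95.5%) and by 48 SNORD members (46.2%), so it set the classes apart less than the other boxes did. The sequences are of members on which the results turn, most of them lower than Vector in several libraries, with SNORD86, SNORD96A and SCARNA12 as members that were higher. Capitals mark the C box core and D box of SNORD RNAs and SCARNA12, and the terminal ACA of SNORA RNAs.
SNORD22 (chr11:62852910-62853035, minus strand, in SNHG1): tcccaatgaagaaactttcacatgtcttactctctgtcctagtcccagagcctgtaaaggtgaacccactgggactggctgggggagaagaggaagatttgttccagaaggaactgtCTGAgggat
SNORD50B (chr6:85677589-85677658, minus strand, in SNHG5): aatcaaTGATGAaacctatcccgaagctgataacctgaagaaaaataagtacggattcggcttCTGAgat
SNORD65 (chr17:16441226-16441298, plus strand, in SNHG29): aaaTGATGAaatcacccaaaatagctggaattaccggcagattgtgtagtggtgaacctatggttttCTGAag
SNORD5 (chr11:93733228-93733300, minus strand, in TAF1D): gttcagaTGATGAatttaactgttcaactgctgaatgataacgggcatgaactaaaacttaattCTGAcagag
SNORA32 (chr11:93730979-93731099, minus strand, in TAF1D): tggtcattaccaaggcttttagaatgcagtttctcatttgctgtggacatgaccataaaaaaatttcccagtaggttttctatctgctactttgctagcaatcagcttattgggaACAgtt
SNORA4 (chr3:186787612-186787749, plus strand, in EIF4A2): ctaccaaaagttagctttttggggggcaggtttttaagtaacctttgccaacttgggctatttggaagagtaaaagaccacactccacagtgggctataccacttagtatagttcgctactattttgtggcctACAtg
SNORD86 (chr20:2656097-2656182, plus strand, in NOP56): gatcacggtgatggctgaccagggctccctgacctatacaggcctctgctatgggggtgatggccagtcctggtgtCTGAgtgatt
SNORD96A (chr5:181241814-181241892, minus strand, in RACK1): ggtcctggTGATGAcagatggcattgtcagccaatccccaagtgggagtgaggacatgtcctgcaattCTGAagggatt
SCARNA12 (chr12:6967337-6967606, minus strand, in PHB2): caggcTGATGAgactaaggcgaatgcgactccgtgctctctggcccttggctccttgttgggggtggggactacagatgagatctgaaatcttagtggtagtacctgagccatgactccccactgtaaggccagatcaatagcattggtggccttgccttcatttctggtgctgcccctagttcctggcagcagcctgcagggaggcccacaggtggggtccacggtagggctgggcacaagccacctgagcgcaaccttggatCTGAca

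Levels spread over more than 2 orders of magnitude. SNORD members had a median of 5.63 RPKM and reached 327 RPKM, SNORA members a median of 3.71 and a highest of 28.5, and SCARNA members a median of 2.44 and a highest of 10.4. The 5 highest SNORD rows were SNORD49B (327 RPKM on average), SNORD86 (131), SNORD47 (73.3), SNORD116-4 (73.1) and SNORD76 (51.3). The 5 highest SNORA rows were SNORA67 (28.5), SNORA70 (24.4), SNORA61 (21.5), SNORA10 (15.8) and SNORA40 (15.5). Short features need few reads for such levels, and whole reads could be recovered for 169 members. Their median was 9.67 reads per library, 87 members had fewer than 10 and 55 had at least 20. A count of 0 allows up to 3 reads, which is 1.54 to 1.74 RPKM for a feature of 100 bases.

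The recovered counting length matched the annotated RNA, within 0.8 to 1.25 times, for 156 members. For 13 members it was longer, from 1.98 to 31.4 times the annotated length, and what the extra length holds was not tested. For 5 of these, SNORD116-2, SNORD116-3, SNORD116-5, SNORD116-19 and SNORD62A, it was 1.98 to 2.11 times. The longest was SNORA8, counted over 4358 bases for an RNA of 139, then SNORD1C over 2012 bases, SNORA39 over 1422, SNORD116-20 over 1235 and SNORA7B over 1119. SNORD116-4 and SNORD116-28 gave no whole-read solution. The strand setting of the counting is not given in the sources used here, so reads of a small RNA, of its host's intron and of an overlapping exon cannot be told apart, and 108 of 154 members with a known strand overlapped an annotated exon of the same strand.

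The members were lower than in Vector more often than genes in general, most often in RIPK4 and RIPK3. At least 2-fold lower on the log2(RPKM + 1) scale were 40 of 171 members in RIPK4, where 0.387% of all 11881 genes were so called, and 38 in RIPK3 (0.581% of all genes). The counts were 30 in Wnt3a (1.43%), 18 in RIPK2 (0.699%) and 17 in RIPK1 (0.547%). Of the 46 genes of any kind called lower in RIPK4, 87.0% were members, and of the 69 in RIPK3, 55.1%. At least 2-fold higher were 12 members in Wnt3a (0.673% of all genes), 12 in RIPK1 (0.295%), 13 in RIPK2 (1.6%), 10 in RIPK3 (1.48%) and 12 in RIPK4 (0.404%). Members' shares stood above the background in both directions, and beside them stands the low number of reads per member. The median log2 difference of members was -0.30 in RIPK4, -0.33 in RIPK3, -0.28 in Wnt3a, -0.21 in RIPK1 and -0.08 in RIPK2, against 0.05, 0.02, 0.04, 0.01 and -0.01 over all genes.

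**Figure D1:**
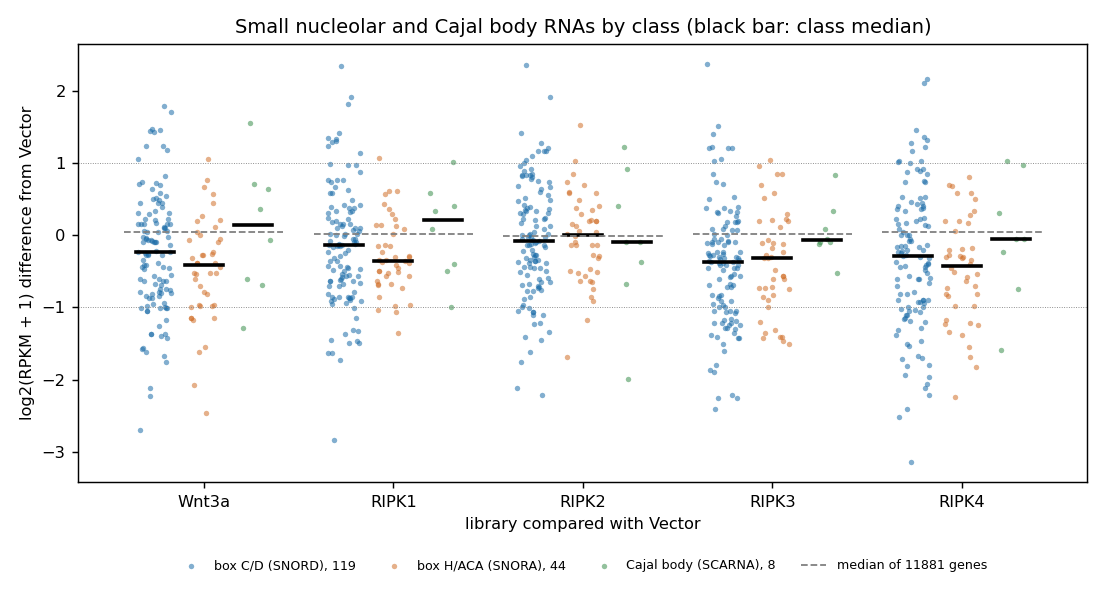
Differences from Vector in log2(RPKM + 1) (vertical axis) for each member in the 5 libraries (horizontal axis), coloured by class, with the class median as a black bar and the median of all 11881 genes dashed. SNORD medians lie between -0.08 and -0.37, and those of the 8 SCARNA members between -0.10 and 0.22.

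Summed over members, RPM came to 324 in Vector, 240 in Wnt3a, 256 in RIPK1, 275 in RIPK2, 232 in RIPK3 and 234 in RIPK4. The ratios to Vector were 0.741 (0.712 to 0.771) in Wnt3a, 0.792 (0.762 to 0.823) in RIPK1, 0.849 (0.817 to 0.881) in RIPK2, 0.715 (0.688 to 0.744) in RIPK3 and 0.721 (0.693 to 0.751) in RIPK4. SNORA8 alone held 1361 of the 5587 reads in Vector, and without it the ratios were 0.844, 0.859, 0.923, 0.772 and 0.798. The 156 members of matched length gave 0.774, 0.803, 0.905, 0.733 and 0.709. Box C/D RNAs gave 0.861, 0.866, 0.906, 0.768 and 0.815, in the same order of libraries. Without the SNORD116 copies they gave 0.803, 0.788, 0.887, 0.740 and 0.732, and the 107 of matched length 0.776, 0.798, 0.883, 0.721 and 0.707. Box H/ACA RNAs without SNORA8 gave 0.689 (0.619 to 0.767) in Wnt3a, 0.766 (0.692 to 0.849) in RIPK1, 0.970 (0.881 to 1.07) in RIPK2, 0.738 (0.665 to 0.819) in RIPK3 and 0.674 (0.605 to 0.751) in RIPK4. The difference between the classes was not tested.

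Counting error alone spreads ratios of single members widely. At least 2-fold lower with an interval wholly under 1 were 28 of 169 members in RIPK4 (0.34% of 9709 genes with recovered reads), 24 in RIPK3 (0.484%), 14 in Wnt3a (1.39%), 12 in RIPK2 (0.659%) and 9 in RIPK1 (0.433%). At least 2-fold higher with an interval wholly over 1 were 6 in RIPK2 (1.64%), 4 in Wnt3a (0.659%), 4 in RIPK1 (0.278%), 3 in RIPK4 (0.371%) and 0 in RIPK3 (1.47%). Among the 55 members with at least 20 reads, those at least 2-fold lower on the log2(RPKM + 1) scale were 13 in RIPK4 (0.162% of 11736 genes with as many reads), 11 in RIPK3 (0.349%), 8 in Wnt3a (1.25%), 5 in RIPK2 (0.588%) and 3 in RIPK1 (0.435%), and those higher were 3 (0.307%), 0 (1.38%), 2 (0.562%), 3 (1.48%) and 1 (0.187%). Genes with few reads were compared in a band of 20 to 100 reads, on RPM without a pseudocount. There 13 of 49 members were at least 2-fold lower in RIPK4 (26.5%, against 3.35% of all 806 genes in the band), 10 in RIPK3 (20.4% against 4.34%), 8 in Wnt3a (16.3% against 5.58%), 4 in RIPK2 (8.16% against 4.96%) and 2 in RIPK1 (4.08% against 3.72%). At least 2-fold higher were 2 of 49 in Wnt3a (10.9% of all 806), 2 in RIPK1 (4.22%), 4 in RIPK2 (11.7%), 1 in RIPK3 (10.2%) and 4 in RIPK4 (8.06%). In this band the members' share of lower genes stood near the background in RIPK1. Their share of higher genes was below or near the background in all 5 libraries, in RIPK4 8.16% against 8.06%.

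**Figure D2:**
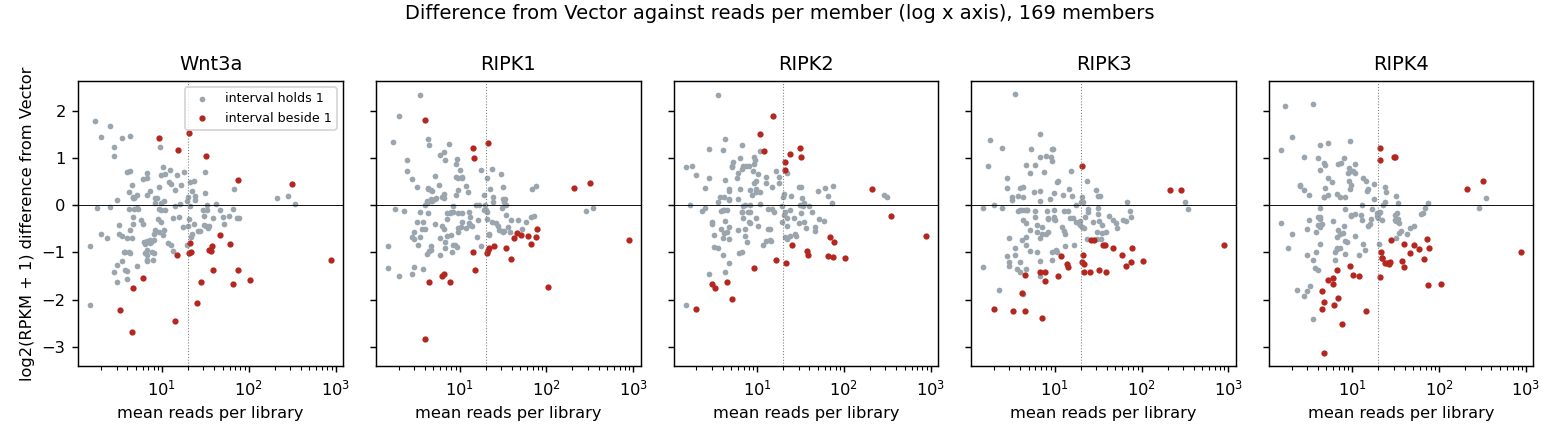
Difference from Vector in log2(RPKM + 1) (vertical axis) against mean reads per library on a log axis (horizontal axis) for 169 members, 1 panel for each library. Red points have a 95% counting interval of the ratio that lies wholly on 1 side of 1, and the dotted line marks 20 reads; in RIPK3 and RIPK4 most red points lie below 0.

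Vector was the highest of the 6 libraries for 65 members (38.0%, against 19.3% of all genes), Wnt3a for 18 (10.5% against 23.3%), RIPK1 for 19 (11.1% against 20.9%), RIPK2 for 37 (21.6% against 13.6%), RIPK3 for 14 (8.19% against 11.9%) and RIPK4 for 18 (10.5% against 11.0%). The lowest library was RIPK3 for 43 members (25.1% against 7.04%), Wnt3a for 34 (19.9% against 22.3%), RIPK4 for 33 (19.3% against 5.84%), Vector for 22 (12.9% against 21.7%), RIPK2 for 20 (11.7% against 22.1%) and RIPK1 for 19 (11.1% against 21.0%). Members thus had their highest value in Vector and their lowest in RIPK3 or RIPK4 more often than genes in general.

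The GAS5 locus, a noncoding host known for its accumulation in cells that stop growing, held 10 SNORD members, and their sum was lower than in Vector in every other library. Its members took 665 reads in Vector, 382 in Wnt3a, 417 in RIPK1, 412 in RIPK2, 374 in RIPK3 and 297 in RIPK4. The ratios of RPM were 0.535 (0.471 to 0.608), 0.554 (0.489 to 0.628), 0.554 (0.489 to 0.627), 0.508 (0.447 to 0.578) and 0.420 (0.365 to 0.483). The GAS5 row itself lay at 93.9 RPKM in Vector and at 85.8, 68.8, 88.0, 86.0 and 72.0 in the same order. The small RNAs thus stood at 0.586 (0.510 to 0.673), 0.756 (0.660 to 0.867), 0.591 (0.516 to 0.677), 0.555 (0.483 to 0.638) and 0.549 (0.472 to 0.637) of the host's ratio, with every interval below 1. Without SNORD47 the ratios to Vector were 0.627, 0.670, 0.596, 0.540 and 0.470.

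SNORD47, a methylation guide for ribosomal RNA, was the GAS5 member with the most reads. Its level was 155 RPKM in Vector, 51.2 in Wnt3a, 45.9 in RIPK1, 71.4 in RIPK2, 68.0 in RIPK3 and 48.2 in RIPK4. Vector stood above the other 5 libraries by 2.17-fold (1.71 to 2.77) over RIPK2 and up to 3.38-fold (2.56 to 4.50) over RIPK1. SNORD81 lay at 89.0 RPKM in Vector, 33.9 in Wnt3a, 56.0 in RIPK1, 41.0 in RIPK2, 37.8 in RIPK3 and 26.7 in RIPK4. The lowest, in RIPK4, was 3.34-fold (2.34 to 4.84) under Vector. SNORD79 lay at 51.5 RPKM in Vector and between 18.8 and 24.3 in the others.

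The GAS5 members differed among themselves. SNORD76 was nearer to Vector in Wnt3a, with 73.7 RPKM in Vector, 61.3 in Wnt3a, 51.9 in RIPK1, 42.9 in RIPK2, 38.8 in RIPK3 and 39.1 in RIPK4. SNORD80 ranged from 29.2 to 43.3 RPKM and SNORD78 from 14.4 to 26.3, both highest in Vector. SNORD74 was lowest in Vector, at 3.22 RPKM from 4 reads in Vector and 4.27 to 9.85 elsewhere, and SNORD77 was highest in RIPK2 at 20.4 RPKM against 8.55 in Vector. Both rest on 24 or fewer reads in each library. SNORD74, SNORD77, SNORD78 and SNORD80 fall outside the rule by which genes were named.

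**Figure D3:**
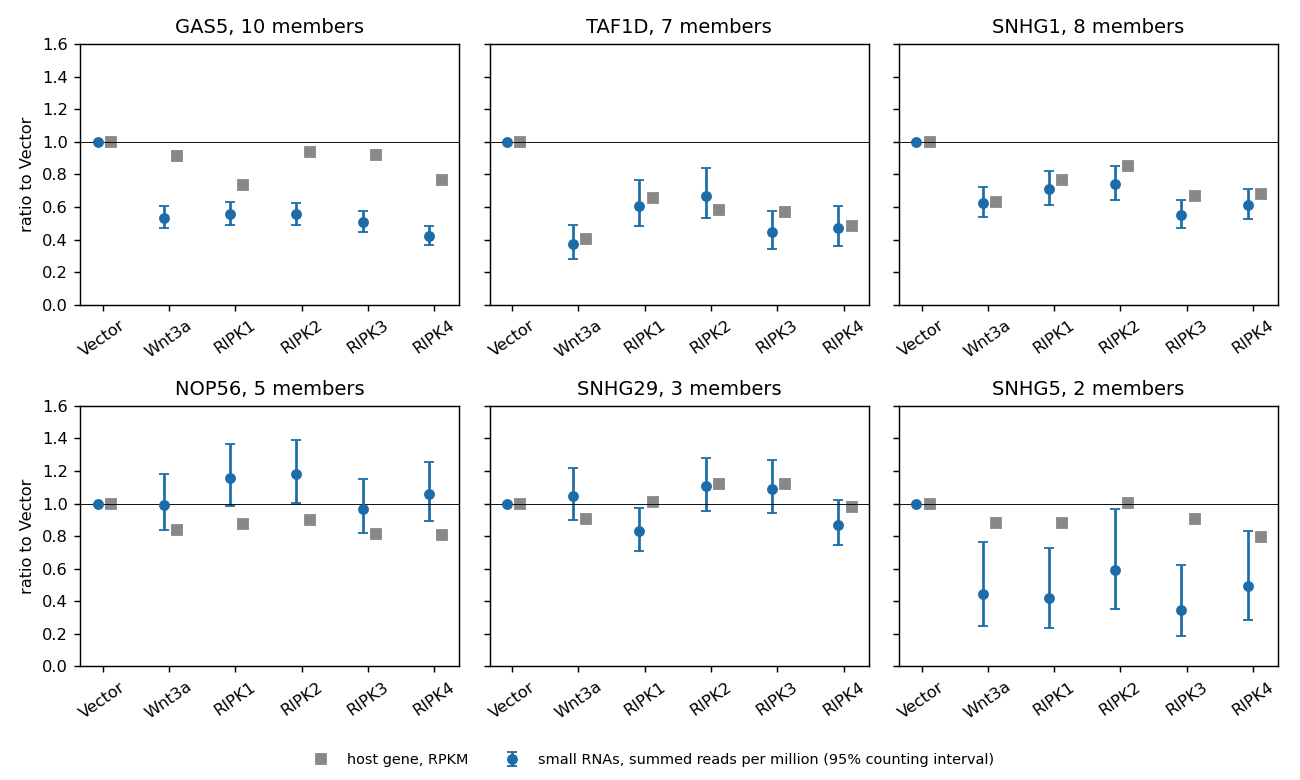
Ratio to Vector (vertical axis) of the summed RPM of small RNAs of matched length in 6 host loci (blue, with 95% counting intervals) and of the host gene's RPKM (grey) in each library (horizontal axis). In GAS5 the small RNAs lie at 0.420 to 0.554 while the host lies at 0.733 to 0.937, and in TAF1D both lie low together.

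The small RNAs of SNHG1, another noncoding host, were lower together with their host. Its 8 members took 440 reads in Vector, 295 in Wnt3a, 353 in RIPK1, 365 in RIPK2, 267 in RIPK3 and 285 in RIPK4, with ratios of 0.624 (0.537 to 0.725), 0.709 (0.615 to 0.818), 0.742 (0.644 to 0.854), 0.548 (0.469 to 0.640) and 0.610 (0.524 to 0.709). The SNHG1 row lay at 50.6 RPKM in Vector and at 32.0, 38.6, 43.0, 33.7 and 34.4. Relative to the host the members stood at 0.823 (0.696 to 0.973) in RIPK3, and the other 4 intervals held 1. SNORD22, whose relative in frogs is needed for processing of ribosomal RNA, led the difference: 53.8 RPKM in Vector, 16.3 in Wnt3a, 30.1 in RIPK1, 25.1 in RIPK2, 21.6 in RIPK3 and 23.8 in RIPK4. Wnt3a was 3.31-fold (2.27 to 4.90) under Vector. The sequence of SNORD22 printed above holds the D box CTGA but no TGATGA in its first 20 bases.

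Other SNHG hosts differed from one another. SNORD50B, of SNHG5, lay at 29.4 RPKM in Vector, 14.4 in Wnt3a, 15.2 in RIPK1, 17.5 in RIPK2, 10.3 in RIPK3 and 13.1 in RIPK4, and RIPK3 was 2.85-fold (1.50 to 5.71) under Vector. The members of SNHG29 differed from each other. SNORD49B, the member with the highest level, lay at 303 RPKM in Vector and between 279 and 379 elsewhere. Its ratio was 1.25 (1.06 to 1.48) in RIPK3, and the other 4 intervals held 1. SNORD65 from the same host lay at 27.8 RPKM in Vector and at 15.5, 14.0, 11.4, 12.9 and 13.5 in Wnt3a, RIPK1, RIPK2, RIPK3 and RIPK4. RIPK2 was 2.45-fold (1.32 to 4.73) under Vector. SNORD48, of SNHG32, was counted over 316 bases and was higher in Wnt3a at 8.37 RPKM and in RIPK2 at 8.20 than in Vector at 3.49.

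TAF1D, which encodes a subunit of the factor that directs RNA polymerase I to ribosomal DNA, held 8 members, most of them H/ACA RNAs. Both the members and the host were lower than in Vector. At least 2-fold lower were 6 of the 8 in Wnt3a (1.43% of all genes), 5 in RIPK3 (0.581%), 3 in RIPK4 (0.387%), 1 in RIPK1 (0.547%) and 0 in RIPK2 (0.699%). The 7 of matched length took 186 reads in Vector, 74 in Wnt3a, 128 in RIPK1, 139 in RIPK2, 92 in RIPK3 and 93 in RIPK4. Their ratios were 0.371 (0.279 to 0.488), 0.608 (0.482 to 0.766), 0.668 (0.533 to 0.837), 0.447 (0.344 to 0.577) and 0.471 (0.363 to 0.607). The TAF1D row ran with them, at 45.4 RPKM in Vector and 18.4, 29.7, 26.4, 25.7 and 22.0, and the members' ratio over the host's was 0.789 to 1.15 with every interval holding 1. The row SNORA8 spans 4358 bases in this locus and gave 18.1, 7.61, 10.5, 11.2, 9.77 and 8.72 RPKM.

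SNORA18 lay at 18.4 RPKM in Vector, 5.32 in Wnt3a, 12.4 in RIPK1, 11.4 in RIPK2, 10.7 in RIPK3 and 10.7 in RIPK4. Wnt3a was lowest, 3.47-fold (1.83 to 7.04) under Vector, and the other 4 lay close together. SNORA32 lay at 14.4 RPKM in Vector, 1.78 in Wnt3a, 6.78 in RIPK1, 8.14 in RIPK2, 5.20 in RIPK3 and 2.26 in RIPK4, and is named after its values were seen, as its 14.3 reads per library fall under the limit of 20. SNORA40 lay at 22.5 RPKM in Vector and between 11.1 and 16.3 in the others. It has an annotated copy, SNORA40B, that differs by 4 edits, so its reads could be split. SNORD5, a C/D RNA of this locus, lay at 27.8 RPKM in Vector, 13.3 in Wnt3a, 13.3 in RIPK1, 17.0 in RIPK2, 11.5 in RIPK3 and 8.97 in RIPK4, where it was 3.10-fold (1.57 to 6.56) under Vector.

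EIF4A2, the gene of a helicase of translation initiation, held 4 members, with SNORA4 as the one most apart. SNORA4 lay at 19.9 RPKM in Vector, 3.94 in Wnt3a, 10.5 in RIPK1, 10.6 in RIPK2, 6.88 in RIPK3 and 7.97 in RIPK4. Wnt3a was 5.05-fold (2.52 to 11.2) and RIPK3 2.89-fold (1.65 to 5.29) under Vector. The EIF4A2 row lay at 125 RPKM in Vector and at 110, 119, 77.1, 79.8 and 86.8, so its lowest library was RIPK2 and not Wnt3a. The 4 members together stood at 0.505 (0.360 to 0.701) of Vector in Wnt3a, 0.793 (0.596 to 1.06) in RIPK1, 0.669 (0.494 to 0.902) in RIPK2, 0.583 (0.424 to 0.796) in RIPK3 and 0.642 (0.470 to 0.873) in RIPK4. Without SNORA4, left out after the data were seen, the ratios were 0.745 (0.499 to 1.11), 1.0 (0.698 to 1.44), 0.775 (0.524 to 1.14), 0.768 (0.518 to 1.14) and 0.832 (0.564 to 1.22), and every interval held 1.

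Of the 5 highest H/ACA rows, the other 4 beside SNORA40 differed less from Vector than SNORA4 did. SNORA67, of EIF4A1, lay at 32.6 RPKM in Vector, 26.8 in Wnt3a, 27.7 in RIPK1, 34.1 in RIPK2, 30.2 in RIPK3 and 19.5 in RIPK4, and the interval excluded 1 in RIPK4 only, at 0.599 (0.410 to 0.868). SNORA61, of SNHG12, and SNORA10, of RPS2, were likewise lowest in RIPK4, with ratios of 0.544 (0.353 to 0.828) and 0.544 (0.322 to 0.901). SNORA70, of RPL10, was highest in RIPK2 at 36.9 RPKM against 28.3 in Vector and lowest in Wnt3a at 15.6. SNORA10 has an annotated copy that differs by 2 edits.

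Genes of ribosomal proteins hosted 44 members, whose sums differed in direction from some of the hosts. Their summed ratios were 0.785 (0.698 to 0.882) in Wnt3a, 0.749 (0.666 to 0.842) in RIPK1, 1.10 (0.989 to 1.22) in RIPK2, 0.767 (0.682 to 0.862) in RIPK3 and 0.688 (0.609 to 0.778) in RIPK4. The RPL23A row lay at 47.8 RPKM in Vector and 120 in Wnt3a, while its 4 members took 42 and 33 reads, a ratio of 0.732 (0.449 to 1.18). RPL7A lay at 203 and 381 RPKM, and its 4 members at 85 and 79 reads, a ratio of 0.866 (0.629 to 1.19). The 4 members of RPL13A were higher in RIPK2, at 76 reads against 22 in Vector and a ratio of 3.09 (1.90 to 5.22), with RPL13A at 237 RPKM against 277.

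The SNORD116 copies, a tandem family of C/D RNAs in the imprinted Prader-Willi region with no known ribosomal target, were higher in sum in RIPK1 and RIPK4 than in Vector. They made up 19 members inside the noncoding host SNHG14, and 12 of them had a matched counting length. These 12 took 72 reads in Vector, 102 in Wnt3a, 165 in RIPK1, 85 in RIPK2, 74 in RIPK3 and 133 in RIPK4. RIPK1 stood at 2.03 (1.53 to 2.71) and RIPK4 at 1.74 (1.30 to 2.35) times Vector, while the intervals of Wnt3a, RIPK2 and RIPK3 held 1. The restriction to matched length was chosen after the data were seen. All 17 copies with recovered reads gave 1.52 (1.33 to 1.74) in RIPK1, 1.51 (1.32 to 1.73) in RIPK4, 1.34 (1.17 to 1.54) in Wnt3a, 1.06 (0.922 to 1.23) in RIPK2 and 1.0 (0.867 to 1.16) in RIPK3, so that the interval of Wnt3a then lay above 1. SNORD116-20 held 233 of their 352 reads in Vector. Single copies with few reads, such as SNORD116-14 with 0 reads in Vector and 0 to 5 elsewhere, reached the level limit only through the libraries where they were higher.

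The copies share most of their sequence, shown here for the 3 of matched length with the most reads, with the C box core and D box in capitals.
SNORD116-22 (chr15:25089923-25090014, plus strand): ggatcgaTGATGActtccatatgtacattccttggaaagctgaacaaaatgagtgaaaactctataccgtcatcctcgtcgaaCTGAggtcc
SNORD116-24 (chr15:25094037-25094128, plus strand): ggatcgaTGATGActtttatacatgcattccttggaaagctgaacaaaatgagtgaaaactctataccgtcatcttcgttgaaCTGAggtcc
SNORD116-1 (chr15:25051477-25051571, plus strand): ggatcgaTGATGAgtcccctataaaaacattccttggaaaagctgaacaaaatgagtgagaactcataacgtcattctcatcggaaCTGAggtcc

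Over the 171 pairs of copies the median was 15 edits. SNORD116-22 differs from SNORD116-17 by 1 edit and SNORD116-24 from SNORD116-16 by 3, so reads could be split between copies and single copies are uncertain. SNORD116-24 lay at 7.48 RPKM in Vector, 11.0 in Wnt3a, 20.4 in RIPK1, 6.69 in RIPK2, 7.89 in RIPK3 and 18.8 in RIPK4. RIPK1 stood at 2.73 (1.39 to 5.74) and RIPK4 at 2.51 (1.26 to 5.35) times Vector, and the rest near Vector. SNORD116-22 lay at 11.7 RPKM in Vector, 10.9 in Wnt3a, 19.2 in RIPK1, 15.7 in RIPK2, 14.8 in RIPK3 and 24.8 in RIPK4. SNORD116-1 lay at 6.04 RPKM in Vector and reached 15.5 in RIPK1. Without SNORD116-24 the sum was 1.89 (1.38 to 2.61) times Vector in RIPK1 and 1.59 (1.14 to 2.22) in RIPK4.

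Rows of the family without a matched length spanned less. SNORD116-20, counted over 1235 bases, lay at 10.9 RPKM in Vector, 15.3 in Wnt3a, 15.7 in RIPK1, 12.4 in RIPK2, 11.6 in RIPK3 and 16.3 in RIPK4. SNORD116-4, without a solved length, lay at 76.6 RPKM in Vector and between 61.9 and 85.1 elsewhere. Of the neighbouring rows, chosen after their values were seen, PAR5 lay at 7.53 RPKM in Vector, 18.9 in RIPK1 and 11.5 in RIPK4. SNRPN lay at 221, 235 and 221 RPKM in the same 3 libraries and IPW at 53.1, 52.9 and 50.8.

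**Figure D4:**
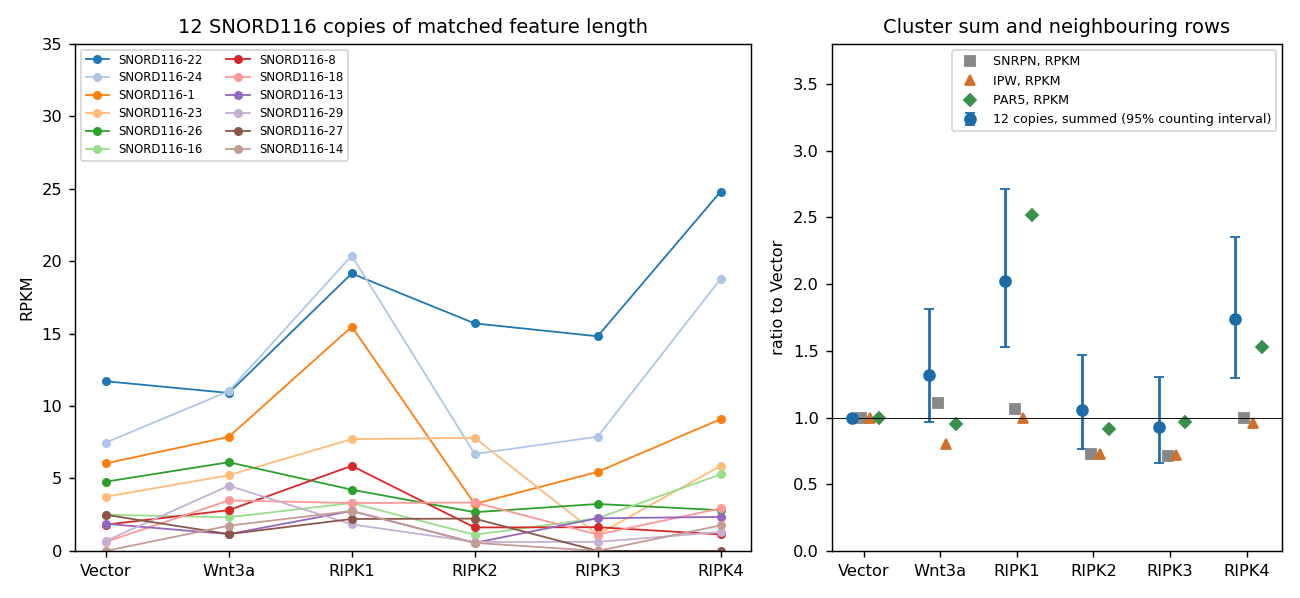
Left, RPKM (vertical axis) of 12 SNORD116 copies of matched length in the 6 libraries (horizontal axis), each line joining 1 copy. Right, ratio to Vector of their summed RPM with 95% counting intervals and of the RPKM of SNRPN, IPW and PAR5; the sum lies at 2.03 in RIPK1 and 1.74 in RIPK4, and PAR5 is also above 1 there.

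The 8 Cajal body RNAs, which guide modification of spliceosomal RNAs, were not lower in sum. Their summed ratios were 1.43 (1.13 to 1.81) in Wnt3a, 1.28 (1.01 to 1.62) in RIPK1, 1.06 (0.829 to 1.36) in RIPK2, 1.10 (0.863 to 1.41) in RIPK3 and 1.18 (0.924 to 1.51) in RIPK4, from 123 reads in Vector. SCARNA17 lay at 0.964 RPKM in Vector, 4.75 in Wnt3a, 1.95 in RIPK1, 2.71 in RIPK2, 2.49 in RIPK3 and 2.85 in RIPK4, from 7 reads in Vector and 37 in Wnt3a. Wnt3a stood at 4.92 (2.17 to 13.1) times Vector. Without SCARNA17 the class ratio was 1.22 (0.952 to 1.57) in Wnt3a and 1.24 (0.967 to 1.58) in RIPK1. It was then 0.956 (0.736 to 1.24) in RIPK2, 1.01 (0.782 to 1.31) in RIPK3 and 1.07 (0.828 to 1.39) in RIPK4. The median log2 difference of the 8 members was 0.15 in Wnt3a, 0.22 in RIPK1, -0.10 in RIPK2, -0.07 in RIPK3 and -0.06 in RIPK4. SCARNA12, in PHB2, lay at 3.66 RPKM in Vector, 6.62 in Wnt3a, 5.14 in RIPK1, 9.83 in RIPK2, 3.51 in RIPK3 and 8.52 in RIPK4, with RIPK2 at 2.68 (1.52 to 4.96) and RIPK4 at 2.33 (1.30 to 4.36) times Vector. SCARNA9, the highest of the class, lay at 10.0 RPKM in Vector and was lowest in RIPK2 at 5.89. SCARNA9L lay at 1.34 RPKM in Vector and 3.69 in RIPK1. SCARNA22 ranged from 2.07 to 5.14 RPKM with every interval holding 1.

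NOP56, a core protein of box C/D particles, hosts 5 members, with summed ratios of 0.992, 1.16, 1.18, 0.969 and 1.06 in Wnt3a, RIPK1, RIPK2, RIPK3 and RIPK4, in which SNORD86 held most reads. Without SNORD86, left out after the data were seen, they were 0.803 (0.597 to 1.08), 0.919 (0.693 to 1.22), 1.03 (0.780 to 1.35), 0.505 (0.359 to 0.705) and 0.720 (0.529 to 0.976), so that RIPK3 and RIPK4 lay under Vector. SNORD86 lay at 109 RPKM in Vector, 121 in Wnt3a, 142 in RIPK1, 139 in RIPK2, 137 in RIPK3 and 138 in RIPK4. Vector was thus its lowest library, and the ratios in the 4 kinase libraries were 1.26 to 1.31 with intervals just above 1. SNORD57 from the same host, chosen after its values were seen, was highest in Vector at 33.8 RPKM and lowest in RIPK3 at 12.4. RACK1, a ribosome scaffold, hosts SNORD96A, which lay at 11.3 RPKM in Vector, 16.5 in Wnt3a, 19.9 in RIPK1, 25.2 in RIPK2, 16.7 in RIPK3 and 15.2 in RIPK4. RIPK2 stood at 2.24 (1.17 to 4.50) times Vector, and the other 4 intervals held 1.

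**Figure D5:**
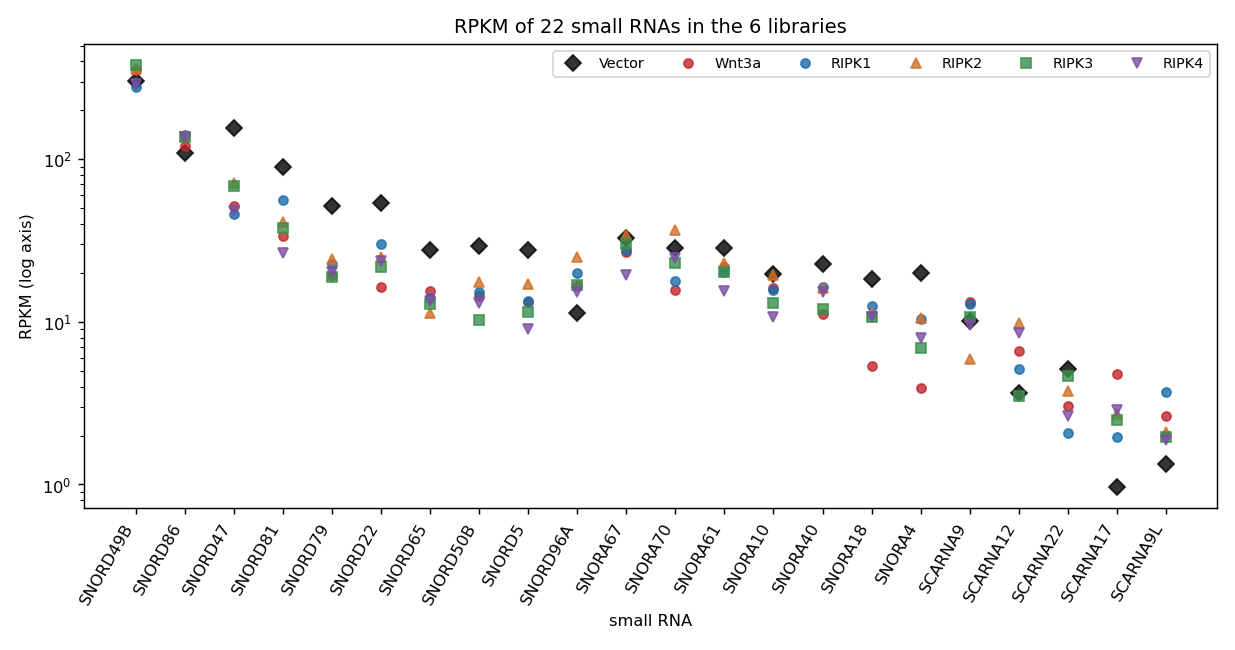
RPKM on a log axis (vertical) of 22 small RNAs (horizontal axis) in the 6 libraries, Vector as black diamonds. Vector is on top for SNORD47, SNORD81, SNORD79, SNORD22, SNORD65, SNORD50B and SNORD5, and at the bottom for SNORD86, SNORD96A and SCARNA17.

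Among members with few reads, SNORD45A, of RABGGTB, lay at 9.66 RPKM from 14 reads in Vector and at 0.643 to 2.47 from 1 to 4 reads elsewhere, with every interval under 1. SNORD51, of EEF1B2, had 7 reads in Vector and 1 to 3 elsewhere, with every interval holding 1. SNORD95, of RACK1, had 0 reads in Vector, which allows up to 3, and 2 to 5 elsewhere. These members were named after their values were seen.

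Members of matched length with a known strand were also divided by the annotated exons they overlap. Those without a known strand are in neither group. Among them are the 10 GAS5 members, whose summed ratios were 0.420 to 0.554. The 99 that overlap a same-strand exon had summed ratios of 0.805 (0.758 to 0.855) in Wnt3a, 0.830 (0.783 to 0.881) in RIPK1, 0.986 (0.932 to 1.04) in RIPK2, 0.799 (0.752 to 0.848) in RIPK3 and 0.775 (0.729 to 0.823) in RIPK4. The 40 outside exons had 1.04 (0.893 to 1.21), 1.10 (0.949 to 1.28), 1.10 (0.946 to 1.27), 0.807 (0.686 to 0.948) and 0.898 (0.766 to 1.05). The intervals of the 2 groups were apart in Wnt3a and RIPK1 and overlapped in the other 3 libraries. SNORD116 copies fall in both groups, and the difference between the groups was not tested. Across 138 members of matched length and their 68 hosts, Spearman's rho between the log2 differences of member and host was 0.331 in Wnt3a, 0.220 in RIPK1, 0.202 in RIPK2, 0.257 in RIPK3 and 0.275 in RIPK4. Members of 1 host share that host's value, and both share the libraries. The median GC content was 43.5% for SNORD, 49.3% for SNORA and 52.3% for SCARNA members. Across 154 members, rho between GC content and the difference was 0.342, 0.170, 0.414, 0.352 and 0.232, against 0.692, -0.0814, 0.662, 0.543 and 0.665 across 11817 genes. With the trend on GC content over all genes removed, the median difference of these 154 members was -0.17 in Wnt3a, -0.18 in RIPK1, 0.06 in RIPK2, -0.27 in RIPK3 and -0.24 in RIPK4. The value in RIPK2 without this removal, -0.08, is over all 171 members. These sets differ, so the change of sign cannot be put down to the removal alone. At least 2-fold lower with the trend removed were 21 of the 154 members in Wnt3a (0.838% of the 11817 genes), 13 in RIPK1 (0.516%), 8 in RIPK2 (0.44%), 27 in RIPK3 (0.449%) and 32 in RIPK4 (0.364%).

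Kept transcripts of the proteins that build and guide the snoRNA particles stayed within 2-fold of Vector, as most genes did. Of 38 symbols in the list 33 were kept, and 0 were at least 2-fold higher or lower in any of the 5 libraries. Over all 11881 genes 0.295% to 1.6% were called higher and 0.387% to 1.43% lower, so 0 of 33 is near the share of all genes. The 33 had median log2 differences of -0.21 in Wnt3a, 0.00 in RIPK1, -0.25 in RIPK2, -0.19 in RIPK3 and -0.23 in RIPK4. Fibrillarin (FBL) lay at 113 RPKM in Vector and 122 to 168 elsewhere, and dyskerin (DKC1) at 63.4 and 55.6 to 71.6. NOP58, another box C/D core protein, lay at 96.2 RPKM in Vector and 63.5, 88.6, 56.0, 58.9 and 52.6 in Wnt3a, RIPK1, RIPK2, RIPK3 and RIPK4. LARP7, which binds small RNAs with uridine-rich ends, lay at 119 RPKM in Vector and 61.0, 94.7, 64.9, 65.4 and 75.8. Of 23 rows in a list of other noncoding RNAs 7 were kept, of which RNU11, VTRNA1-3 and RMRP are small structured RNAs and the other 4 are host transcripts of miRNAs. RMRP, the RNA of RNase MRP, had 0 reads in Vector and 18 to 22 in each other library. At least 2-fold higher among those 7 were 2 in Wnt3a (0.673% of all genes), 1 in RIPK1 (0.295%), 2 in RIPK2 (1.6%), 2 in RIPK3 (1.48%) and 1 in RIPK4 (0.404%). Lower were 1 in Wnt3a (1.43%) and 0 in the other 4 libraries (0.387% to 0.699%).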

How the data were processed

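The values are RPKM per gene for 6 RNA-seq libraries of PA-1 cells, as the authors deposited them in 1 table, with 5 significant digits. Tools named in the submitters' processing notes are GSNAP and DESeq, with the build hg19. The counting rule is not given in the sources used here. Groups follow the labels, with 1 library each, so no test, replicate check or pairing could be made.

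Reads were recovered from the RPKM by finding, for each gene, the length at which all 6 values are whole reads at library totals of 17.2 to 19.5 M. This solved 81.7% of the 11881 genes whose mean RPKM reached 1 and 169 of 171 members, and was tested on simulated data. The unit is a library value, and 3 reads on 100 bases equal 1.54 to 1.74 RPKM. Differences are log2(RPKM + 1) against Vector, and a call is a 2-fold difference on that scale. Ratios of RPM, reads scaled to library total, carry exact binomial 95% intervals from SciPy 1.17.1. Ratios of members over their host carry 95% intervals of the conditional odds ratio of their reads, also from SciPy. In the band of 20 to 100 reads a Vector count of 0 was set to 0.5. Tables were handled with Python 3.11.15, NumPy 2.4.6 and pandas 2.3.3, the trend on GC content was fitted with statsmodels 0.14.6, and figures were drawn with matplotlib 3.10.9.

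Hosts are RefSeq genes (GRCh38.p14) that span a member, on the same strand where both strands were known. The strand was known for 154 members, and for the rest a host on either strand could be taken. Sequences and exons come from GENCODE 29, matched by name. A host was found in the table for 145 members, outside the table for 25 and not at all for SNORA76. Genes were named by rule: the 5 highest members of each class, the 3 largest rises and falls per comparison among members 2-fold apart with at least 20 reads, known processing RNAs, those at the limit of 1 RPKM, and hosts of named members or of at least 3 members. Members named outside that rule are marked, except SNORD116-1, SNORD116-20 and rows named for their counting length, reads, host or copies. The other lists held 38 proteins of snoRNA particles, 23 other small RNA rows and 16 cell markers. Members and lists were chosen with earlier results of these data known. Alternatives were a pseudocount of 0.1, no filter, at least 20 reads, median-ratio scaling, removal of the GC trend, and leaving out multicopy families, SNORA8 or, added after the data were seen, members of longer counting length.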

Additional observations from a re-analysis of the deposited data

How the results depend on the processing

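The summed ratios stayed under 1 in the 5 libraries under the 6 alternatives that apply to a sum of reads, and the pseudocount and the GC trend do not enter such a sum. Leaving out multicopy families gave 0.701 in Wnt3a, 0.743 in RIPK1 and 0.668 in RIPK4. Leaving out SNORA8 gave 0.844, 0.859, 0.923, 0.772 and 0.798 in Wnt3a, RIPK1, RIPK2, RIPK3 and RIPK4. Keeping only members of matched length, chosen after seeing the data, gave 0.774 in Wnt3a and 0.905 in RIPK2. At least 20 reads gave 0.817 in RIPK2 and median-ratio scaling 0.691 in RIPK4. Of 30 alternative ratios, 18 stayed within the main interval and 12 moved. Among alternative counts of members called higher, 21 stayed near the main count and 14 moved. Among those called lower, 27 stayed and 8 moved. Counts have no such interval, so how often they moved cannot be compared with the ratios. With a pseudocount of 0.1, members called lower were 46 in Wnt3a (2.47% of all genes under that setting) and 27 in RIPK1 (0.943%), and members called higher were 27 in RIPK2 (2.92%), 17 in RIPK3 (2.53%) and 21 in RIPK4 (1.21%). With at least 20 reads, which leaves 55 members, 8, 3, 5, 11 and 13 were called lower and 2, 1, 3, 0 and 3 higher. Of the 11736 genes with as many reads, 0.162% to 1.25% were called lower and 0.187% to 1.48% higher. Without the filter on mean RPKM, 19 in Wnt3a (0.449% of all 20494 rows), 21 in RIPK2 (1.02%) and 21 in RIPK4 (0.278%) of 353 were called higher. With the GC trend removed, which leaves the 154 members with a known GC content, 7 in Wnt3a (0.347% of 11817 genes) and 6 in RIPK3 (1.08%) were called higher and 8 in RIPK2 (0.44%) lower. The median log2 difference in RIPK2 was 0.06 over those 154, against -0.08 over all 171 members in the main setting. These sets differ, so the changes cannot be put down to the GC trend alone. Without multicopy families 7 of 152 members were called higher in RIPK1 (4.61%, against 0.295% of all 11881 genes). Apart from fewer members under stricter filters, the cause of these shifts was not tested. Depth limits single members, as 87 had fewer than 10 reads per library. No paired analysis was possible because each group holds 1 library, and for the same reason no library could be left out.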
